A study of Homo sapiens with 12 samples.

Results

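The 53 genes described here are interferon-stimulated genes, the set that cells switch on when they sense interferon. They were chosen as a list of symbols, and all 53 were found by Ensembl identifier among the 62754 identifiers of the count table. RNA was sequenced from PC9, an EGFR-mutant line of human lung adenocarcinoma, all of it from a subclonal derivative. Each of 4 groups held 3 cultures that were split from 1 flask and then grown apart, so the p-values measure the spread between such cultures. Untreated WT cells carried intact TDP1 and received no drug. DTC (drug-tolerant cells) had the same genotype and 7 days of 1 µM erlotinib, an inhibitor of the EGFR kinase. DTEC (drug-tolerant expanded cells), again wild type, had 28 days of the same dose. KO was the TDP1 knockout line KO2, also without drug. It is 1 line, and TDP1, the gene targeted in it, encodes an enzyme that removes DNA topoisomerase I trapped on DNA.

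Type I interferons bind the receptor pair IFNAR1 and IFNAR2, whose kinases JAK1 and TYK2 phosphorylate STAT2. Phosphorylated STAT2 joins IRF9 in the complex ISGF3, which binds the interferon-stimulated response element (ISRE) in promoters of interferon-stimulated genes. Interferon gamma acts through a different promoter element, GAS, and IRF1 extends both programmes. The products include enzymes that sense or edit double-stranded RNA, membrane and cytosolic blocks to viruses, the ubiquitin-like modifier ISG15, and the signalling factors themselves. In epithelial tumour cells these genes can also be on without added interferon.

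Promoter windows from RefSeq (GRCh38.p14), reaching from 250 bases before to 50 after the annotated start, were given for 44 of the 53 genes. An ISRE core was taken as GAAA, any pair of bases and GAAA again, on either strand, and GAS as TTCNNNGAA, which reads the same on both strands. Both were searched separately, so matches may overlap. An ISRE core lay in 27 of the 44 windows (61.4%), against 996 of all 27305 windows of this length (3.65%), and GAS in 12 (27.3%) against 7.88% of all. A match describes letters only. The 6 stretches below come from genes with a window in each of the 3 time courses described further on. The first of each time course had the largest mean scaled count over the wild-type libraries, not corrected for gene length. The second was the next by that measure that held an ISRE core. They show how the cores lie relative to the start. Capitals mark ISRE cores. SP100 and DDX60L fell back fully between 7 and 28 days, LGALS3BP and PARP14 fell back in part, and DTX3L and IFITM3 stayed high. Each ends at the base before the start, except that of DTX3L, which runs 4 bases past it so that the core is whole.
SP100: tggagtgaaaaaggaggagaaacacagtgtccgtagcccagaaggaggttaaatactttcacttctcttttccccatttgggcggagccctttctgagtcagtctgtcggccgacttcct
DDX60L: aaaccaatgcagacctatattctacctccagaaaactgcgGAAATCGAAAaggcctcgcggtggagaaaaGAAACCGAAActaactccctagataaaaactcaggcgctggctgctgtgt
LGALS3BP: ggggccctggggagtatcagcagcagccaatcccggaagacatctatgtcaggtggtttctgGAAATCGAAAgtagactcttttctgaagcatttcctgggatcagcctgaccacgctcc
PARP14: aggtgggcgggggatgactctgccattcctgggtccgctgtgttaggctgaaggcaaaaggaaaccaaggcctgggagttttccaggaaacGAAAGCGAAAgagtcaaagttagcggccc
DTX3L: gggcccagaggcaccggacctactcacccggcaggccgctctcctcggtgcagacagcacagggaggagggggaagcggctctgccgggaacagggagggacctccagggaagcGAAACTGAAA
IFITM3: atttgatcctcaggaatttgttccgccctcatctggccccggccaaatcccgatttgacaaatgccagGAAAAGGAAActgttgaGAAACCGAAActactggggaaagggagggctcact

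These stretches lie at chr2:230416081-230416200 (plus strand), chr4:168480493-168480612 (minus), chr17:78979924-78980043 (minus), chr3:122680719-122680838 (plus), chr3:122564218-122564341 (plus) and chr11:320861-320980 (minus). SP100 had no core in its window, and DDX60L and IFITM3 had 2 each. By time course, a core was present in 7 of 13 windows of genes that fell back fully, 13 of 19 of those that fell back in part and 3 of 4 of those that stayed high. GAS was present in 1 of 13, 8 of 19 and 1 of 4. The counts are small and no test was made of the difference between them.

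The libraries held 25572691 to 38373679 estimated counts. TDP1 was at 26.3 ± 1.60 CPM (counts scaled to a common library total; SD, n = 3) in untreated WT and 10.8 ± 0.647 CPM in KO, lower in all 3 KO libraries. It was also lower in wild-type DTC, at 13.96 ± 1.55 CPM (log2 fold change -0.92, edgeR adjusted p 3.6e-06), and was at 26.6 ± 1.54 CPM in DTEC. Epithelial markers EPCAM, KRT7, KRT8, KRT18, KRT19 and CDH1 were expressed in every library, while the alveolar markers NKX2-1 and NAPSA were near or under 2 CPM. The sum of these 8 was 6294 to 7279 CPM in DTC, below the 10794 to 11395 in untreated WT, and 9276 to 12152 in DTEC. KRT18 (-1.31), KRT8 (-1.10), EPCAM (-0.81) and KRT19 (-0.33, edgeR adjusted p 0.0366) were called lower in DTC on the log2 scale. NAPSA (3.67, edgeR adjusted p 2.62e-05) and NKX2-1 (3.42, edgeR adjusted p 0.00276) were called higher there, from these low levels. KRT7 (0.08) and CDH1 (0.06) were not called. The summed level of 8 immune markers was 12.3 to 12.9 CPM in DTC, against 1.62 to 1.92 in untreated WT. It was 1.68 to 2.77 at 28 days and 1.68 to 2.18 in KO. Most of the DTC sum was ITGAM (9.88 to 10.8 CPM), and MS4A1 and NKG7 had 0 counts in every library. ITGAM (3.00, edgeR adjusted p 2.43e-08), LYZ (2.60, edgeR adjusted p 0.00182) and CD14 (2.07, edgeR adjusted p 0.0432) were called higher in DTC, and the other immune markers were not tested. Of 6 fibroblast markers COL1A1 made up most of the sum, which was 55.0 to 57.6 CPM in DTC and 7.99 to 8.91 in untreated WT. The sum was 11.1 to 14.1 at 28 days and 13.4 to 15.1 in KO. COL1A1 was called higher in DTC (2.74, edgeR adjusted p 1.93e-10), DTEC (0.58, edgeR adjusted p 0.000638) and KO (0.73, edgeR adjusted p 0.00194). The 4 endothelial markers summed to 42.1 to 50.1 CPM in DTC and 58.5 to 61.4 in untreated WT. Their sum was 122 to 142 at 28 days and 75.8 to 77.2 in KO. Against untreated WT, PECAM1 was lower in DTC (-1.87, edgeR adjusted p 4.43e-09). It was higher in DTEC (1.52, edgeR adjusted p 7.26e-08) and KO (0.59, edgeR adjusted p 0.00519). VWF was higher in DTC (3.64, edgeR adjusted p 2.88e-05) and DTEC (1.71, edgeR adjusted p 0.0196). CDH5 was not called and KDR was not tested. The part of other cells in the results was not tested. Mitochondrial genes took 4.43% to 5.41% of the counts in DTC and 2.50% to 2.77% in untreated WT. In bulk RNA, more cells that express a gene and more RNA per cell cannot be told apart.

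Most of the interferon-stimulated genes were higher after 7 days of erlotinib, and most of these were lower again at 28 days without all returning to the untreated level. Of the 53, 51 passed the filter on low counts. CMPK2 and EPSTI1 did not, with 18 and 1 counts in DTC over 3 libraries. Calls were made where edgeR's quasi-likelihood test, adjusted over 17115 genes, gave p under 0.05. In DTC against untreated WT, 45 of the 51 rose, where 34.0% of all tested genes were called higher, and 4 fell, where 33.3% of all were called lower. The median log2 fold change of the 51 was 2.51, against 0.06 for all genes. Of the 45, 40 rose at least 2-fold, a cut-off at which no share of all genes was computed. In DTEC against untreated WT, 31 were higher (26.0% of all genes) and 2 were lower (26.3% of all), with a median of 1.15 against 0.02. In DTEC against DTC, 39 were lower (26.6% of all) and 3 higher (28.8% of all), with a median of -1.39 against -0.01. These comparisons share libraries, so their values are given side by side and not correlated. The number of genes under 1 CPM, out of 53, was 5 in DTC, 14 in DTEC, 20 in KO and 21 in untreated WT. At 10 CPM or more there were 33, 19, 17 and 16 in the same order. CPM is not divided by gene length, so levels are compared within a gene and not between genes.

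**Figure D1:**
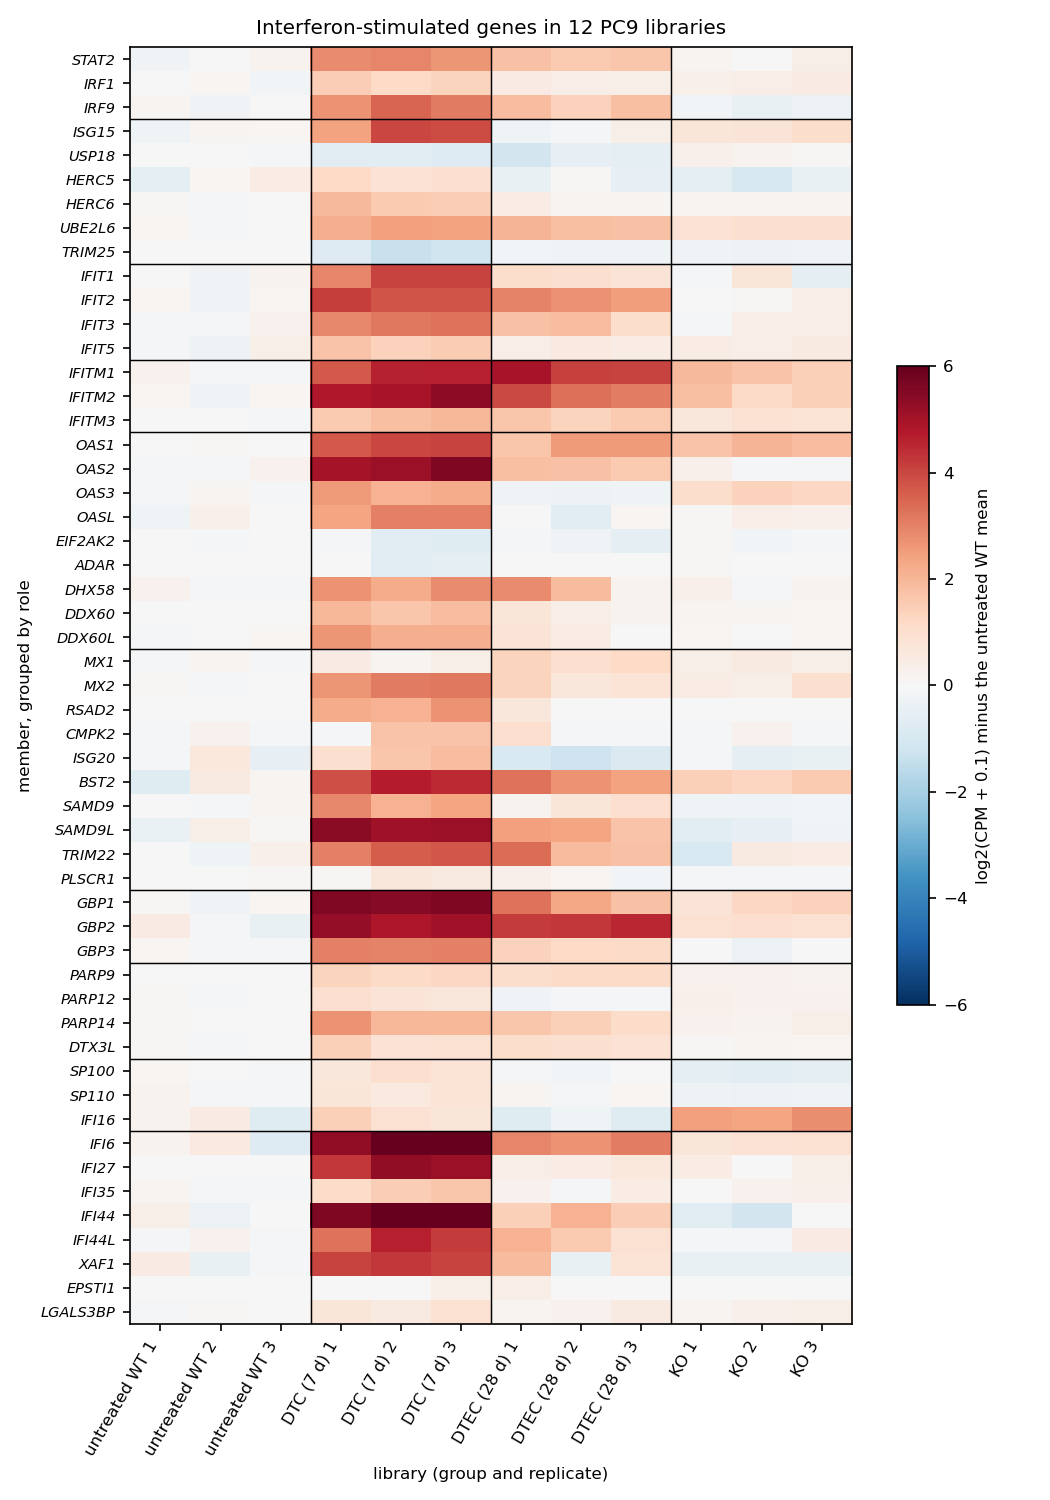
Heat map of the 53 genes (rows, grouped by role) in the 12 libraries (columns), as log2(CPM + 0.1) minus the mean of the 3 untreated WT libraries, with colours saturating at 6 in either direction. The DTC columns are red in most rows, the DTEC columns are paler in most of these, and the KO columns are mostly near white, with IFI16, OAS1, IFITM1 and IFITM2 among the exceptions.

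The DNA-binding and signalling members STAT2, IRF9 and IRF1 rose together at 7 days and remained above untreated WT at 28 days, at 21.9% to 35.7% of their rise. STAT2, the STAT that is particular to interferon signalling (ENSG00000170581, chr12:56341597-56360155 in GENCODE 29, GRCh38), was at 11.3, 12.6 and 15.2 CPM in the untreated WT cultures, 91.8, 98.7 and 82.7 in the DTC, 43.7, 37.97 and 40.9 in the DTEC and 14.3, 12.8 and 16.4 in the KO cultures. The 3 DTC libraries were highest, the 3 DTEC libraries lay between them and untreated WT, and none of these groups overlapped. The log2 fold change was 2.81 (SE 0.134, edgeR adjusted p 5.85e-10) in DTC and 1.65 (SE 0.131, edgeR adjusted p 2.19e-07) in DTEC. IRF9, the DNA-binding subunit of ISGF3, was at 2.12, 1.62 and 1.90 CPM in the untreated WT cultures, 12.6, 21.8 and 16.8 in the DTC, 7.004, 5.08 and 6.82 in the DTEC and 1.65, 1.36 and 1.44 in the KO cultures, again with DTEC between the others. It rose by 3.18 (SE 0.214, edgeR adjusted p 1.29e-08) at 7 days and was 1.74 (edgeR adjusted p 1.12e-05) at 28 days. IRF1 was at 15.5, 16.1 and 13.6 CPM in the untreated WT cultures, 42.04, 33.97 and 37.8 in the DTC, 21.1, 20.02 and 19.02 in the DTEC and 18.7, 19.5 and 21.2 in the KO cultures, and its changes were smaller, 1.33 (SE 0.111, edgeR adjusted p 1.03e-07) and 0.41 (edgeR adjusted p 0.00597). Of 12 values each, STAT2 and IRF9 had 0 whole numbers and IRF1 had 1, so some of their reads were shared out among features.

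The genes of ISG15 conjugation split. ISG15, the modifier itself, rose and came back fully, the E2 enzyme UBE2L6 remained high in large part, and the E3 ligase TRIM25 and the ISG15 protease USP18 fell. ISG15 was at 1.22, 1.69 and 1.64 CPM in the untreated WT cultures, 8.38, 25.6 and 23.7 in the DTC, 1.25, 1.38 and 1.95 in the DTEC and 2.60, 2.62 and 3.26 in the KO cultures. DTC replicate 1 was at 34.003% of the mean of the other DTC libraries, and all 3 DTC libraries were above every other library. Its log2 fold change was 3.66 (SE 0.364, edgeR adjusted p 1.06e-06) in DTC and 0.02 (edgeR adjusted p 0.974) in DTEC, where the libraries overlapped those of untreated WT. UBE2L6 was at 13.1, 11.5 and 11.8 CPM in the untreated WT cultures, 55.4, 68.2 and 65.2 in the DTC, 50.3, 42.9 and 41.3 in the DTEC and 22.5, 23.9 and 23.9 in the KO cultures, with no overlap between untreated WT and any other group. It rose by 2.37 (SE 0.116, edgeR adjusted p 6.86e-10) at 7 days and 1.88 (edgeR adjusted p 2.36e-08) at 28 days, so that 64.3% of the rise was left. The HECT ligases HERC5 and HERC6 rose by 1.02 (edgeR adjusted p 0.0088) and 1.68 (edgeR adjusted p 8.91e-08) and were not called at 28 days (-0.37 (edgeR adjusted p 0.35) and 0.28 (edgeR adjusted p 0.102)).

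USP18, which also restrains the type I receptor, was at 8.15, 8.13 and 7.73 CPM in the untreated WT cultures, 5.04, 4.94 and 4.63 in the DTC, 3.62, 5.65 and 5.36 in the DTEC and 9.97, 9.23 and 8.32 in the KO cultures. All DTC and DTEC libraries were below all untreated WT libraries. Its log2 fold change was -0.72 (SE 0.159, edgeR adjusted p 0.00111) in DTC and -0.72 (edgeR adjusted p 0.00174) in DTEC. Scaling by total counts alone, which moved the median of all genes in DTC by 0.35, left it at -0.36 with an edgeR adjusted p of 0.059 in DTC. TRIM25, which also ubiquitinates the RNA sensor RIG-I, was at 252, 266 and 264 CPM in the untreated WT cultures, 152, 102 and 113 in the DTC, 229, 221 and 218 in the DTEC and 227, 214 and 216 in the KO cultures. It fell by 1.10 on the log2 scale in DTC (edgeR adjusted p 2.27e-06) and had risen again by DTEC, 0.87 (edgeR adjusted p 4.05e-05) against DTC.

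All 4 IFIT genes, whose products bind foreign RNA ends and block its translation, rose at 7 days. IFIT1 was at 0.478, 0.405 and 0.577 CPM in the untreated WT cultures, 4.29, 9.54 and 9.71 in the DTC, 1.10, 1.03 and 0.907 in the DTEC and 0.456, 0.874 and 0.304 in the KO cultures. The DTC libraries were above all others, with replicate 1 below the other DTC libraries. It rose by 3.996 (SE 0.380, edgeR adjusted p 4.04e-07) and was 1.04 (edgeR adjusted p 0.0418) at 28 days, a call that was lost without any one of the untreated WT or DTEC libraries (adjusted p 0.0548 to 0.111). IFIT2 was at 1.37, 1.05 and 1.36 CPM in the untreated WT cultures, 23.8, 18.1 and 18.6 in the DTC, 10.7, 8.86 and 7.56 in the DTEC and 1.23, 1.33 and 1.69 in the KO cultures. Here DTC replicate 1 was the highest library and DTEC lay between DTC and untreated WT, with 41.1% of the rise left. The log2 fold change was 3.99 (SE 0.195, edgeR adjusted p 6.86e-10) in DTC and 2.83 (SE 0.193, edgeR adjusted p 6.17e-08) in DTEC. IFIT3 rose by 3.17 (edgeR adjusted p 2.55e-08) and 1.64 (edgeR adjusted p 3.78e-05). IFIT5 rose by 1.55 (edgeR adjusted p 4.24e-06) and was not called at 28 days, 0.47 (edgeR adjusted p 0.0524).

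The IFITM genes, which encode membrane proteins that hinder virus entry, were higher in all 3 groups than in untreated WT. IFITM1 was at 0.0299, 0 and 0 CPM in the untreated WT cultures, 1.32, 2.59 and 2.70 in the DTC, 3.23, 1.80 and 1.73 in the DTEC and 0.316, 0.259 and 0.194 in the KO cultures, which is 1 count in untreated WT in all and 219, 216 and 24 counts in the other groups. DTC and DTEC overlapped each other and were above KO, and every library of these 3 groups was above untreated WT. The ratio of DTC to untreated WT was 219 (95% counting interval 39.0 to 8701), that of DTEC 221 (39.3 to 8786) and that of KO 24.6 (4.01 to 1010). The edgeR adjusted p was 2.71e-07, 7.72e-07 and 0.0128. IFITM2 was at 0.0299, 0 and 0.0288 CPM in the untreated WT cultures, 3.18, 3.56 and 4.78 in the DTC, 1.74, 1.07 and 0.907 in the DTEC and 0.316, 0.162 and 0.221 in the KO cultures. Its ratios to untreated WT, which had 2 counts, were 189 (52.0 to 1568) at 7 days, 60.5 (16.4 to 505) at 28 days and 11.3 (2.77 to 98.8) in KO. It was lower in DTEC than in DTC, -1.63 (edgeR adjusted p 0.000518). IFITM1 lies within the span of IFITM2 on the same strand in GENCODE 29, and 1 of 10 nonzero IFITM1 values and 4 of 11 of IFITM2 were whole, so the division of reads between them is uncertain.

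IFITM3 (ENSG00000142089, chr11:319669-327537), which acts at endosomes, was at 12.5, 12.7 and 11.9 CPM in the untreated WT cultures, 36.5, 44.1 and 49.99 in the DTC, 39.2, 31.7 and 36.7 in the DTEC and 19.9, 23.5 and 21.8 in the KO cultures. Untreated WT was lowest, KO lay above it, and DTC and DTEC were higher still and overlapped. The log2 fold change was 1.81 (SE 0.129, edgeR adjusted p 2.13e-08) in DTC, 1.53 (SE 0.128, edgeR adjusted p 3.38e-07) in DTEC and 0.81 (SE 0.128, edgeR adjusted p 0.00239) in KO. Against DTC, DTEC was not called lower, -0.28 (edgeR adjusted p 0.0667). An adjusted p that misses the threshold does not show that levels were alike. In all, 3 of the 12 values of IFITM3 were whole.

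Of the 9 RNA sensors and RNA-binding enzymes, 3 fell back fully, 3 in part, 1 stayed high and 2 were lower in DTC. OAS1, OAS2 and OAS3, neighbours on chromosome 12, make the second messenger that turns on RNase L. OAS1 was at 0.747, 0.776 and 0.721 CPM in the untreated WT cultures, 10.9, 13.3 and 13.9 in the DTC, 2.62, 4.81 and 4.95 in the DTEC and 2.63, 3.33 and 2.96 in the KO cultures. DTC was highest, the DTEC and KO libraries all lay between it and untreated WT, and 28.3% of the rise was left in DTEC. Its log2 fold change was 4.08 (SE 0.247, edgeR adjusted p 4.88e-09) in DTC, 2.46 (edgeR adjusted p 1.98e-06) in DTEC and 1.99 (edgeR adjusted p 0.00045) in KO. OAS2 was at 0, 0 and 0.0288 CPM in the untreated WT cultures, 3.35, 3.83 and 5.13 in the DTC, 0.274, 0.267 and 0.220 in the DTEC and 0.0351, 0 and 0 in the KO cultures, with 1 count in untreated WT. The ratio to untreated WT was 405 (95% counting interval 72.2 to 16018) in DTC and 24.6 (4.01 to 1012) in DTEC (edgeR adjusted p 2.24e-08 and 0.000416). OAS3 was at 5.26, 6.58 and 5.60 CPM in the untreated WT cultures, 34.8, 25.2 and 27.2 in the DTC, 4.90, 4.62 and 4.84 in the DTEC and 12.04, 15.1 and 13.7 in the KO cultures. It was above untreated WT in DTC and KO without overlap and below every untreated WT library in DTEC, where the difference was not called (-0.28 (edgeR adjusted p 0.137)). It rose by 2.32 (SE 0.145, edgeR adjusted p 6.63e-09) in DTC and 1.23 (SE 0.144, edgeR adjusted p 0.000261) in KO.

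DHX58, a regulator of RIG-I and MDA5, was at 0.0299, 0 and 0 CPM in the untreated WT cultures, 0.608, 0.412 and 0.674 in the DTC, 0.670, 0.306 and 0.0275 in the DTEC and 0.0351, 0 and 0.0276 in the KO cultures. It had 1 count in untreated WT, 55 in DTC and 31 in DTEC, and the DTEC libraries ran from the level of DTC down to that of untreated WT. The ratio was 55.1 (95% counting interval 9.48 to 2214) in DTC and 31.8 (5.30 to 1295) in DTEC (edgeR adjusted p 0.000754 and 0.00513). DDX60L, a helicase-like protein, was at 18.5, 19.2 and 20.8 CPM in the untreated WT cultures, 121, 89.7 and 87.5 in the DTC, 32.8, 26.2 and 18.9 in the DTEC and 21.3, 19.9 and 21.3 in the KO cultures. All DTC libraries were above all others and DTEC overlapped untreated WT. The log2 fold change was 2.35 (SE 0.177, edgeR adjusted p 4.27e-08) in DTC and 0.41 (edgeR adjusted p 0.0593) in DTEC. Its neighbour DDX60 rose by 1.86 (edgeR adjusted p 6.6e-08) and was still 0.48 (edgeR adjusted p 0.0154) at 28 days. OASL, an OAS-like protein without the enzyme activity, rose by 3.01 (edgeR adjusted p 6.77e-07) and was -0.16 (edgeR adjusted p 0.706) at 28 days.

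EIF2AK2, the kinase PKR that stops translation on double-stranded RNA, was at 167, 158 and 168 CPM in the untreated WT cultures, 152, 108 and 100.1 in the DTC, 151, 141 and 115 in the DTEC and 173, 147 and 156 in the KO cultures. The DTC libraries were below untreated WT, with replicate 1 far nearer to it than the others, and the log2 fold change was -0.46 (SE 0.146, edgeR adjusted p 0.0125). ADAR, which edits adenosine to inosine in double-stranded RNA, was at 338, 339 and 342 CPM in the untreated WT cultures, 338, 218 and 236 in the DTC, 348, 330.1 and 329 in the DTEC and 356, 338 and 343 in the KO cultures. DTC replicates 2 and 3 were below all other libraries, while replicate 1 lay within untreated WT. Its log2 fold change of -0.36 (SE 0.133, edgeR adjusted p 0.0252) lost its call in 16 of 20 alternatives, and that of EIF2AK2 in 5 of 20. Without DTC replicate 2 or 3, EIF2AK2 was at -0.33 and -0.30 and ADAR at -0.18 and -0.24, all uncalled (edgeR adjusted p 0.0874 to 0.226). The count of 4 genes lower in DTC was 1 with total-count scaling, 2 with upper-quartile scaling, and 2 without untreated WT replicate 1, DTC replicate 2 or DTC replicate 3.

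Of the 10 direct antiviral effectors 9 were tested, and 8 rose at 7 days. BST2, or tetherin, which holds budding virus at the cell surface, was at 0.388, 1.08 and 0.808 CPM in the untreated WT cultures, 11.5, 21.2 and 17.7 in the DTC, 7.70, 5.12 and 4.15 in the DTEC and 2.07, 1.88 and 2.29 in the KO cultures. All DTC, DTEC and KO libraries were above untreated WT, in that order. BST2 changed by 4.48 (SE 0.342, edgeR adjusted p 6.81e-08) in DTC, 2.91 (edgeR adjusted p 1.04e-05) in DTEC and 1.47 (edgeR adjusted p 0.0343) in KO. SAMD9L, a restriction factor of poxviruses, was at 0.179, 0.371 and 0.288 CPM in the untreated WT cultures, 15.6, 12.3 and 13.3 in the DTC, 1.92, 1.83 and 1.10 in the DTEC and 0.140, 0.162 and 0.221 in the KO cultures. It rose by 5.61 (SE 0.281, edgeR adjusted p 8.49e-10), and 9.93% of the rise was left in DTEC (2.52 (edgeR adjusted p 8.73e-06)). TRIM22, a ubiquitin ligase, was at 0.209, 0.169 and 0.288 CPM in the untreated WT cultures, 2.50, 3.80 and 4.13 in the DTC, 3.17, 1.07 and 0.962 in the DTEC and 0.0702, 0.356 and 0.332 in the KO cultures. DTEC replicate 1 was within DTC and the other DTEC libraries were below it. TRIM22 was 3.94 (SE 0.541, edgeR adjusted p 1.77e-05) in DTC and 2.93 (edgeR adjusted p 0.000475) in DTEC. RSAD2, or viperin, was at 0, 0 and 0 CPM in the untreated WT cultures, 0.372, 0.324 and 0.557 in the DTC, 0.0609, 0 and 0 in the DTEC and 0, 0 and 0 in the KO cultures. With 0 counts in untreated WT, DTC was at least 13.7-fold higher against a floor of 3 counts over the group (edgeR adjusted p 0.000774), and DTEC had 2 counts, both in replicate 1.

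The other effectors were MX1, MX2, SAMD9, ISG20, PLSCR1 and CMPK2. MX2, a block to nuclear import of viral genomes, rose by 3.28 (edgeR adjusted p 2.9e-07) and SAMD9 by 2.51 (edgeR adjusted p 2.19e-07), and both were above untreated WT at 28 days (1.15 (edgeR adjusted p 0.0072) and 0.70 (edgeR adjusted p 0.0174)). MX1, a dynamin-like GTPase against influenza virus, was not called in DTC (0.34 (edgeR adjusted p 0.155)) and rose at 28 days (1.24 (SE 0.203, edgeR adjusted p 0.00015)). It was at 1.31, 1.55 and 1.27 CPM in the untreated WT cultures, 1.96, 1.53 and 1.76 in the DTC, 3.62, 2.86 and 3.27 in the DTEC and 1.75, 2.07 and 1.77 in the KO cultures, which puts the 3 DTEC libraries above all others. MX1 and MX2 lie 10913 bases apart on chromosome 21, and 1 of the 12 values of MX1 was whole. ISG20, an exonuclease, rose by 1.63 (edgeR adjusted p 0.00206) and was below untreated WT at 28 days, -1.38 (edgeR adjusted p 0.0216). USP18 and ISG20 were the 2 genes called lower in DTEC. That count was 1 without untreated WT replicate 2 or DTEC replicate 2 and 4 without DTC replicate 1. PLSCR1 rose by 0.46 (edgeR adjusted p 0.0138) with overlapping libraries. CMPK2 had 18 counts in DTC, 4 in DTEC and 1 in each of the other groups.

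The guanylate-binding proteins, GTPases that attack pathogen membranes, rose together and were all above untreated WT at 28 days. GBP1 was at 2.99, 2.43 and 3.09 CPM in the untreated WT cultures, 137, 129 and 139.6 in the DTC, 28.2, 14.4 and 9.67 in the DTEC and 4.91, 6.83 and 7.49 in the KO cultures. The 3 DTC libraries were close together, and DTEC replicate 1 was the highest of a spread group in which 11.03% of the rise was left. GBP1 changed by 5.57 (SE 0.357, edgeR adjusted p 4.11e-08) and 2.61 (edgeR adjusted p 3.9e-05). GBP2 was at 1.88, 1.25 and 0.952 CPM in the untreated WT cultures, 55.3, 40.6 and 46.5 in the DTC, 26.01, 26.4 and 32.6 in the DTEC and 2.60, 2.72 and 2.57 in the KO cultures. All groups were apart, in the order DTC, DTEC, KO and untreated WT. GBP2 changed by 5.12 (SE 0.207, edgeR adjusted p 1.49e-10) in DTC, 4.38 (SE 0.204, edgeR adjusted p 1.99e-09) in DTEC and 0.95 (edgeR adjusted p 0.0247) in KO, with 58.5% of the rise left. GBP3 was at 11.7, 10.1 and 10.1 CPM in the untreated WT cultures, 88.2, 85.3 and 88.3 in the DTC, 28.1, 24.8 and 23.5 in the DTEC and 10.3, 8.32 and 10.7 in the KO cultures, changing by 3.03 (SE 0.120, edgeR adjusted p 1.33e-10) and 1.26 (edgeR adjusted p 8.66e-07). The 3 genes stand in a row on chromosome 1 with gaps of 29424 and 40771 bases.

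The ADP-ribosyltransferase family and DTX3L gave rises of unequal size and duration. PARP9 (ENSG00000138496, chr3:122527924-122564577) and DTX3L (ENSG00000163840, chr3:122564238-122575203), which work as a pair in ubiquitination and DNA damage signalling, overlap head to head by 340 bases on opposite strands. PARP9 was at 13.5, 13.7 and 13.7 CPM in the untreated WT cultures, 34.5, 30.5 and 32.4 in the DTC, 28.5, 30.4 and 30.4 in the DTEC and 16.5, 16.1 and 15.6 in the KO cultures. The DTEC libraries lay just below the DTC libraries, and both were above untreated WT and KO by more than the spread of the libraries. The change was 1.25 (SE 0.0912, edgeR adjusted p 2.69e-08) in DTC, 1.13 (SE 0.0911, edgeR adjusted p 2.57e-07) in DTEC and -0.13 (edgeR adjusted p 0.246) between them. DTX3L was at 34.4, 31.2 and 33.2 CPM in the untreated WT cultures, 87.7, 59.5 and 62.04 in the DTC, 68.2, 64.1 and 59.7 in the DTEC and 34.8, 37.4 and 35.5 in the KO cultures. DTC replicate 1 was high, and DTEC overlapped the DTC libraries. DTX3L changed by 1.08 (SE 0.132, edgeR adjusted p 4.98e-06) and 0.96 (SE 0.132, edgeR adjusted p 3.3e-05). The strand setting of the counting is not given in the sources used here, so the overlap could carry reads from one gene to the other.

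PARP14, which modifies STAT signalling, was at 20.8, 19.3 and 19.4 CPM in the untreated WT cultures, 129, 79.1 and 79.8 in the DTC, 63.1, 53.2 and 43.1 in the DTEC and 23.97, 22.9 and 25.7 in the KO cultures. DTC replicate 1 was above the other DTC libraries, and DTEC lay between DTC and untreated WT. It rose by 2.28 (SE 0.185, edgeR adjusted p 9.66e-08) and 1.42 (edgeR adjusted p 1.85e-05), with 43.7% of the rise left. PARP12, a zinc-finger member that restricts virus replication, was at 22.97, 20.4 and 21.4 CPM in the untreated WT cultures, 42.96, 36.8 and 34.1 in the DTC, 18.6, 19.7 and 19.6 in the DTEC and 26.3, 25.8 and 25.8 in the KO cultures. It rose by 0.81 (SE 0.102, edgeR adjusted p 6.82e-06), and in DTEC each library was below untreated WT by an amount that was not called (-0.16 (edgeR adjusted p 0.205)). The 4 log2 fold changes in DTC, from 0.81 to 2.28, were all called.

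Among the nuclear proteins, SP100, a core protein of PML bodies, was at 45.2, 39.8 and 38.4 CPM in the untreated WT cultures, 65.4, 81.9 and 73.4 in the DTC, 39.5, 36.2 and 41.2 in the DTEC and 26.96, 26.2 and 28.6 in the KO cultures. DTC was above and KO below all untreated WT libraries, and DTEC overlapped untreated WT. The log2 fold change was 0.84 (SE 0.106, edgeR adjusted p 7.23e-06) in DTC, -0.08 (edgeR adjusted p 0.569) in DTEC and -0.59 (SE 0.107, edgeR adjusted p 0.00589) in KO. SP110, a related reader protein, was at 10.3, 8.33 and 8.48 CPM in the untreated WT cultures, 15.2, 13.4 and 15.8 in the DTC, 10.2, 8.59 and 9.89 in the DTEC and 7.20, 7.06 and 7.41 in the KO cultures. It rose by 0.71 (edgeR adjusted p 0.00015) and came back fully. IFI16, a sensor of nuclear and cytosolic DNA, was low in every wild-type library and at 0.807, 0.744 and 1.05 in KO. It was at 0.0896, 0.135 and 0 in untreated WT, 0.338, 0.206 and 0.176 in DTC and 0, 0.0382 and 0 in DTEC, and was called in neither against untreated WT (1.66 (edgeR adjusted p 0.0614) and -2.40 (edgeR adjusted p 0.112)). In KO it rose by 3.52 (SE 0.678, edgeR adjusted p 0.00902), with all 3 libraries above all wild-type ones.

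The group of IFI and other genes holds members of varied function, and all 7 tested rose at 7 days. IFI27, a mitochondrial protein and a widely used marker of interferon action, had 0 counts in untreated WT and was at 1.79, 3.86 and 3.58 CPM in DTC, 0.0305, 0.0382 and 0.0550 in DTEC and 0.0351, 0 and 0.0276 in KO. DTC was at least 102-fold above untreated WT (floor of 3 counts over the group, edgeR adjusted p 2.81e-07). In DTEC it was called over untreated WT (3.56 (edgeR adjusted p 0.0431)) with 1 to 2 counts per library, and the call was lost in 10 of 19 alternatives. IFI44L was at 0, 0.0337 and 0 CPM in the untreated WT cultures, 0.946, 2.71 and 1.91 in the DTC, 0.365, 0.229 and 0.110 in the DTEC and 0, 0 and 0.0553 in the KO cultures, and its ratio of DTC to untreated WT, which had 1 count, was 185 (95% counting interval 32.8 to 7356). IFI6, a small membrane protein that opposes apoptosis, was at 0.269, 0.371 and 0.0865 CPM in the untreated WT cultures, 12.6, 27.2 and 31.3 in the DTC, 2.34, 1.99 and 2.58 in the DTEC and 0.421, 0.486 and 0.498 in the KO cultures. The DTC libraries were the highest, replicate 1 lowest among them, and the DTEC libraries all stood between DTC and the untreated groups. IFI6 changed by 6.62 (SE 0.410, edgeR adjusted p 9.47e-09) and 3.27 (edgeR adjusted p 3.44e-05). IFI44 rose by 6.98 (edgeR adjusted p 4.19e-09) and XAF1, an antagonist of the apoptosis inhibitor XIAP, by 5.65 (edgeR adjusted p 6.98e-05).

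IFI35 was at 9.80, 8.43 and 8.42 CPM in the untreated WT cultures, 19.03, 24.9 and 27.9 in the DTC, 10.6, 8.25 and 12.1 in the DTEC and 9.02, 10.6 and 10.8 in the KO cultures. It rose by 1.43 (SE 0.164, edgeR adjusted p 2.65e-06) and overlapped untreated WT in DTEC. LGALS3BP (ENSG00000108679, chr17:78971238-78980109), a secreted glycoprotein that binds galectin-3, was at 281, 328 and 317 CPM in the untreated WT cultures, 506, 452 and 577 in the DTC, 345, 370.1 and 442 in the DTEC and 346, 382 and 393 in the KO cultures. DTC was above DTEC and DTEC above untreated WT in every library. It rose by 0.73 (SE 0.121, edgeR adjusted p 9.32e-05) in DTC and 0.32 (edgeR adjusted p 0.036) in DTEC, the latter lost in 8 of 20 alternatives. EPSTI1 had 1 count in DTC and 1 in DTEC, and 0 elsewhere.

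The 45 genes that rose at 7 days fall into time courses by their calls. Fell back fully means lower in DTEC than in DTC and not called above untreated WT at 28 days, which held for 14 (36.9% of all 5818 genes that rose in DTC did so). In part means lower than DTC but still above untreated WT, which held for 24 (20.4% of the 5818). Stayed high means above untreated WT and not called lower than DTC, which held for 6 (32.5% of the 5818). PLSCR1 met none of these. Because the classes are cut from these values, the values are a description. The share of the 7-day CPM rise left at 28 days had a median of 2.45% in the first class (from -30.3% for ISG20 to 19.8% for IFIT5), 20.6% in the second (1.34% for IFI27 to 64.3% for UBE2L6) and 79.9% in the third (46.4% for TRIM22 to 102% for IFITM1).

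The spread of roles over the classes is described here and was not tested. All 3 signalling factors and all 3 guanylate-binding proteins fell back in part, as did 24 of the 45 genes that rose. Those that fell back fully were ISG15, HERC5 and HERC6, IFIT5, OAS3, OASL and DDX60L, RSAD2 and ISG20, PARP12, SP100 and SP110, and IFI35 and XAF1. Those that stayed high were IFITM1 and IFITM3, the pair PARP9 and DTX3L, DHX58 and TRIM22. Near the threshold, IFIT5 and DDX60L counted as fully back with edgeR adjusted p of 0.0524 and 0.0593 at 28 days, while LGALS3BP, IFIT1 and IFI27 counted as in part with 0.036, 0.0418 and 0.0431. TRIM22 and IFITM3 counted as staying high with 0.0663 and 0.0667 against DTC. DDX60L was called above untreated WT at 28 days in 10 of 20 alternatives, up to 0.59 (edgeR adjusted p 0.00569) without DTEC replicate 3. TRIM22 and IFITM3 were each called lower in DTEC than in DTC in 7 of 20. The value of TRIM22 in that comparison was -1.001 and became -1.79 (edgeR adjusted p 0.00253) without DTEC replicate 1. With the stricter filter of 1 CPM in 3 libraries, 3 genes stayed high. Without DTC replicate 1 the classes held 12, 29 and 4 genes. RSAD2 and XAF1 are counted as fully back although their fitted values at 28 days were 2.68 and 2.08, since these rested on few counts.

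**Figure D2:**
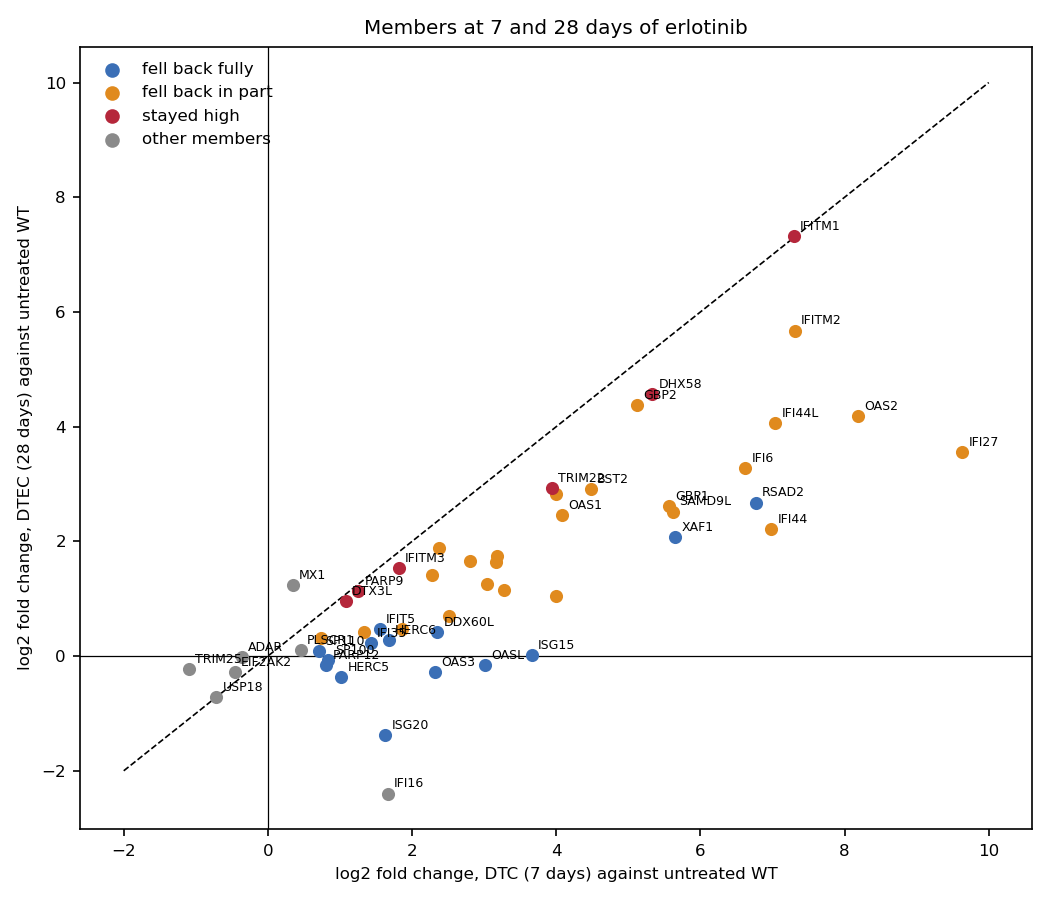
Log2 fold change against untreated WT of the 51 tested genes at 7 days (x axis, DTC) and 28 days (y axis, DTEC), coloured by time course, with a dashed line of equal change and labels where space allowed. Of the genes that stayed high, IFITM1 lies on the line at 7.29 and 7.32, while TRIM22 (3.94 and 2.93) and DHX58 (5.33 and 4.57) lie below it. Those that fell back in part also lie below it, some of them nearer, such as UBE2L6 (2.37 and 1.88). Those that fell back fully lie mostly near 0 on the y axis. The time courses follow the calls and not the distance from the line. Both axes share the untreated WT libraries.

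**Figure D3:**
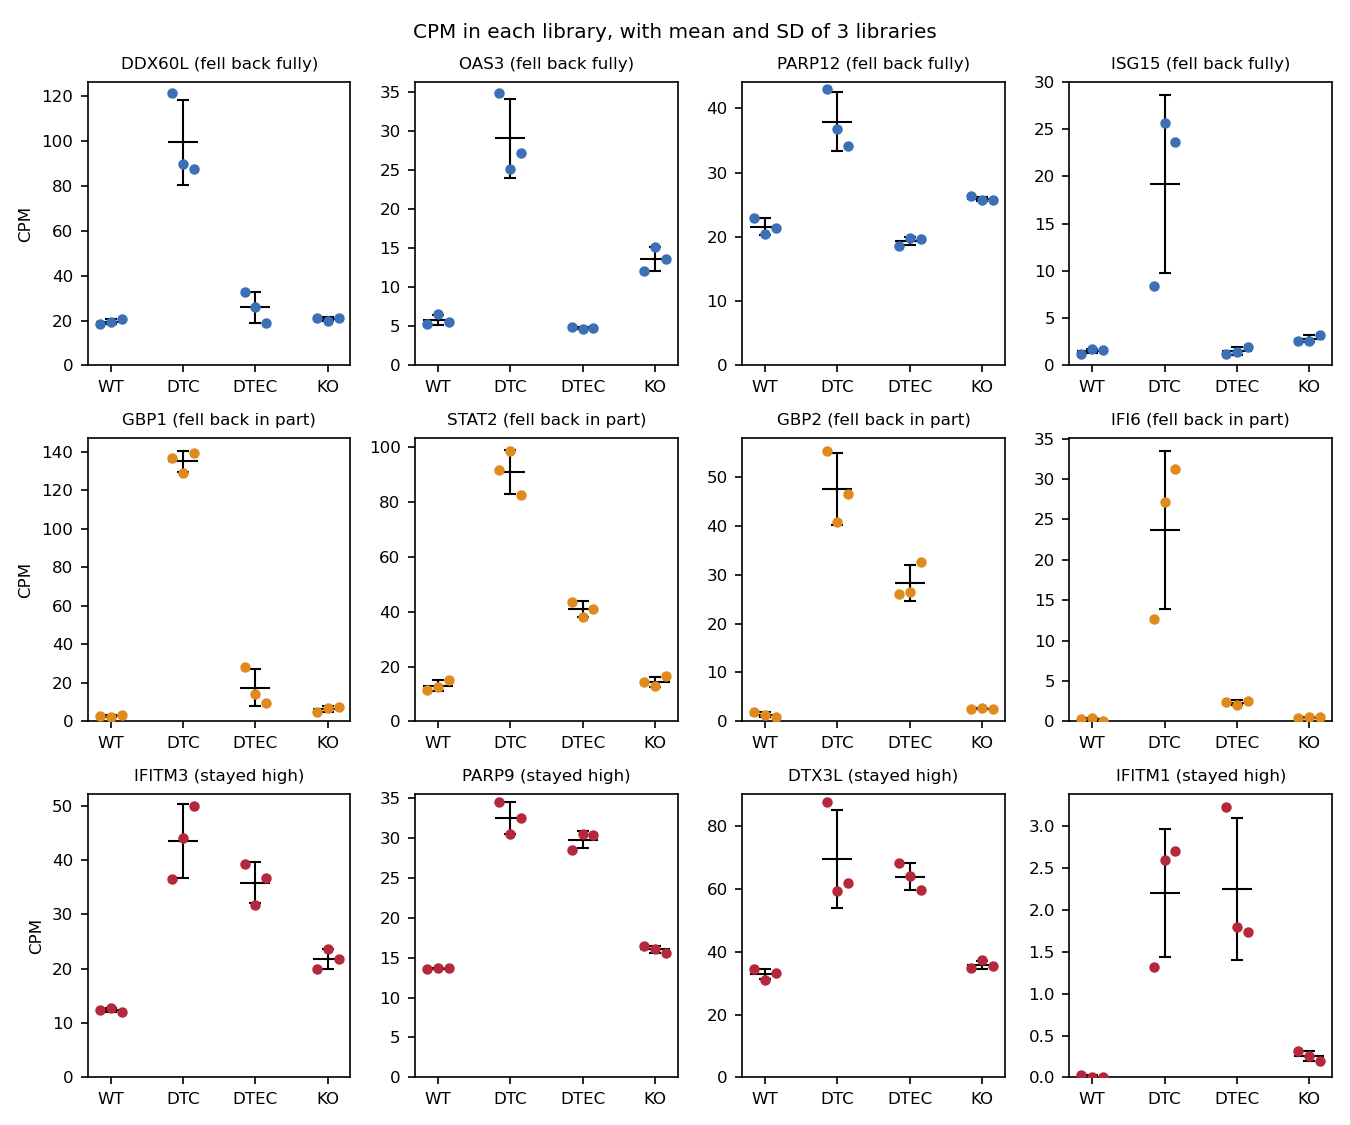
CPM in each library (points) with the mean and SD of 3 libraries (bars) for 4 examples of each time course: fully back (top row), in part (middle) and stayed high (bottom). In the bottom row the DTEC points reach into or near the DTC points, and in the top row they lie at or near the level of untreated WT.

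Of 15 neighbouring pairs with both genes tested, 9 shared a time course and 6 did not. HERC5 and HERC6 (14005 bases apart) both fell back fully, PARP9 and DTX3L both stayed high, and SAMD9 and SAMD9L, IFI44 and IFI44L, the guanylate-binding proteins and IFIT2, IFIT3 and IFIT1 all fell back in part. OAS3 fell back fully between OAS1 and OAS2, which fell back in part. DDX60L fell back fully and DDX60 in part. IFIT5 fell back fully beside IFIT1, and IFITM2 in part beside IFITM1, which stayed high like IFITM3. MX2 fell back in part, while its neighbour MX1 was not called at 7 days and was called higher at 28 days. These counts carry no test.

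The rest of the interferon pathway was read from lists of its genes. Of 10 interferon ligands none passed the count filter: IFNA1, IFNA2, IFNK, IFNW1 and IFNG had 0 counts in all 12 libraries, and IFNB1 had 3 counts in DTC and 0 elsewhere. IFNL1, IFNL2 and IFNL3 had 2, 5 and 2 counts in DTC and 0 elsewhere, and IFNE had 25 in DTC, 10 in untreated WT and 2 in each of the other groups. Of 9 receptor and JAK genes, 6 rose and 1 fell in DTC, and 6 were above and 2 below untreated WT in DTEC. Over all tested genes the shares called higher and lower were 34.0% and 33.3% in DTC, and 26.0% and 26.3% in DTEC. The largest rise was that of IFNGR1, a chain of the interferon gamma receptor, at 58.6, 52.7 and 54.5 CPM in the untreated WT cultures, 213, 333 and 306 in the DTC, 93.8, 73.3 and 62.5 in the DTEC and 59.8, 60.8 and 62.1 in the KO cultures (2.36 (edgeR adjusted p 2.24e-08) in DTC and 0.47 (edgeR adjusted p 0.0247) in DTEC). IL10RB, shared with the interferon lambda receptor, rose by 1.37 (edgeR adjusted p 2.58e-06) and 1.29 (edgeR adjusted p 1.13e-05). The interferon lambda receptor gene IFNLR1 was called lower at both times, -0.32 (edgeR adjusted p 0.0471) and -0.38 (edgeR adjusted p 0.029). IFNAR2 rose by 1.16 (edgeR adjusted p 1.56e-06) and 0.97 (edgeR adjusted p 2.14e-05).

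Outside the 53 genes, IRF7, the amplifier of type I interferon genes, rose by 2.51 (edgeR adjusted p 1.12e-05) and IRF5 by 2.38 (edgeR adjusted p 3.58e-06), and neither was called at 28 days (0.39 (edgeR adjusted p 0.357) and 0.40 (edgeR adjusted p 0.266)). Of 8 negative regulators 4 rose and 4 fell in DTC, where 34.0% and 33.3% of all genes did. SOCS3, an inhibitor of JAK signalling, was -1.94 (edgeR adjusted p 1.44e-08), PTPN11 was -1.20 (edgeR adjusted p 6.92e-06) and SOCS1 was 1.20 (edgeR adjusted p 0.0165). The SOCS1 libraries overlapped, at 0.879, 2.50 and 2.11 CPM in DTC and 0.448, 0.944 and 1.01 in untreated WT. In DTEC SOCS1 was called lower than in untreated WT, again with overlap (-1.13, edgeR adjusted p 0.0495). Of 7 tested genes biased to interferon gamma 6 rose in DTC, against the same 34.0%. The chemokine CXCL10 had 0 counts in untreated WT and was at least 86.5-fold higher in DTC, and CXCL11 was at 7.84, 20.7 and 14.02 CPM in DTC against 2 counts in untreated WT, a ratio of 707 (95% counting interval 195 to 5843). GBP4 rose by 5.67 (edgeR adjusted p 3.12e-09).

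The untreated KO line differed from untreated WT in a small part of the set. KO is 1 line, so loss of TDP1 and other differences of that line cannot be told apart. In KO against untreated WT, 9 of the 51 were higher (2.76% of all tested genes were called higher), 1 was lower (1.55% of all), and the median log2 fold change was 0.20 against -0.01 for all genes. The 9 were IFITM1, IFITM2 and IFITM3, OAS1 and OAS3, UBE2L6, BST2, GBP2 and IFI16, whose values in every library are given above, and SP100 fell. UBE2L6 rose by 0.95 (SE 0.114, edgeR adjusted p 0.000314) in KO. GBP1 (1.18 (edgeR adjusted p 0.0812)) and ISG15 (0.90 (edgeR adjusted p 0.23)) were above untreated WT in all 3 KO libraries without being called. STAT2 (0.16 (edgeR adjusted p 0.599)), IRF9 (-0.35 (edgeR adjusted p 0.491)), IFIT1 (0.14 (edgeR adjusted p 0.911)) and MX1 (0.44 (edgeR adjusted p 0.305)) were not called.

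The KO count rested in part on single libraries. Without untreated WT replicate 3 it was 5, with IFITM1, IFITM2, BST2 and GBP2 lost, and without DTC replicate 1 it was 11. It was 14 of 40 tested genes, with 2 lower, in a fit of the 6 compared libraries, where 9.20% of all 15183 tested genes were called higher and 8.29% lower. IFITM3, OAS1, OAS3, UBE2L6, IFI16 and SP100 were called in KO in every alternative that tested them.

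**Figure D4:**
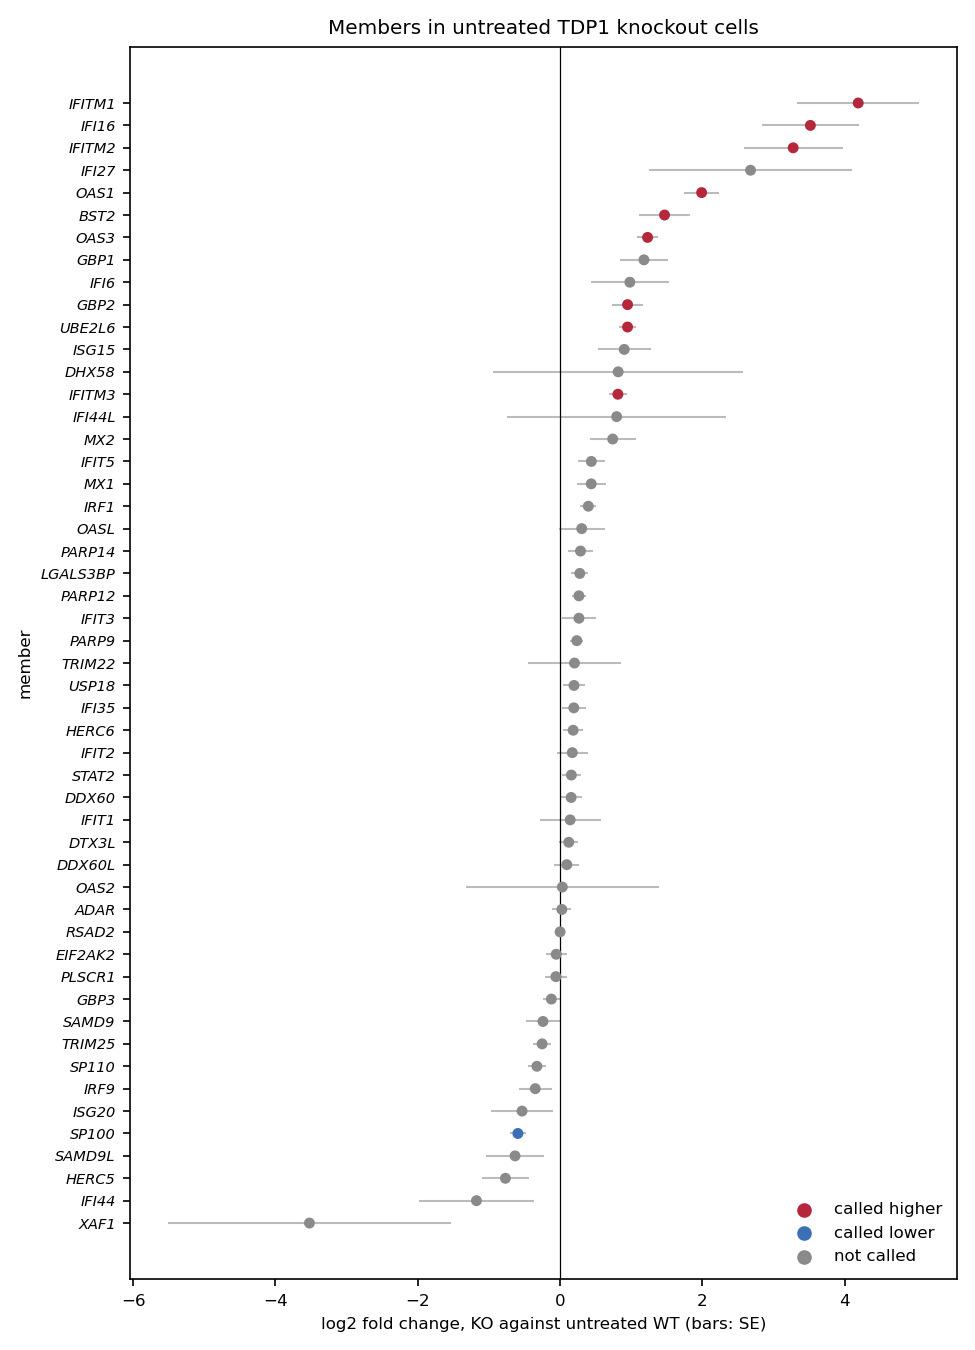
Log2 fold change of the 51 tested genes in KO against untreated WT (x axis) with its SE (bars), ordered by value and coloured by call. IFITM1 (4.19), IFI16 (3.52) and IFITM2 (3.28) are the highest called genes, and 41 genes in grey were not called.

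DTC replicate 1 often differed from the other DTC libraries in these genes, and not only in them. Among the 48 with a DTC mean of at least 1 CPM, it was the lowest of the 3 DTC libraries in 22 and the highest in 20. It was mostly low in short genes and high in long ones: relative to the mean of the other DTC libraries its median was 76.8% in the 24 genes with the shorter merged exons and 119% in the 24 with the longer ones. Spearman's rho with exon length was 0.53 over the 48 genes, which share these 3 libraries and are not independent. ISG15 (34.0%) and IFI6 (43.3%) were among the lowest and PARP14 (163%) and SAMD9 (158%) among the highest. It had the lowest mitochondrial share of the DTC libraries, 4.43%. The part of these differences in the DTC values was not tested. Outside the set, DTC replicate 1 was at 159% of the other DTC libraries for JAK1, 157% for CDH1, 102% for EPCAM and 81.6% for KRT7. The comparison was not made over all genes, nor for the replicates of other groups. Without this library 45 genes were called higher in DTC.

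**Figure D5:**
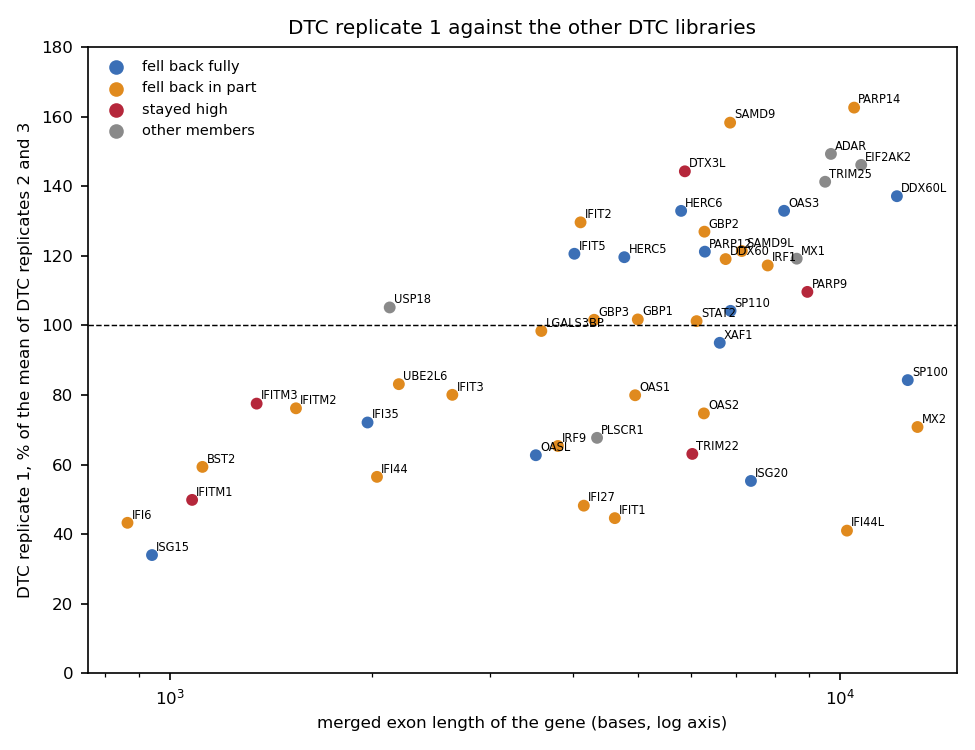
DTC replicate 1 as a percentage of the mean of DTC replicates 2 and 3 (y axis) against merged exon length in bases (x axis, log scale) for the 48 genes with a DTC mean of at least 1 CPM, coloured by time course, with a dashed line at 100%. Genes at the left mostly lie below the line and more of those at the right lie above it.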

How the data were processed

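RNA was sequenced as 101 bp pairs from TruSeq Stranded mRNA libraries of 12 cultures, per the labels' protocols. The authors deposited expected counts per Ensembl gene, estimated and unscaled, and the submitters' processing notes list RSEM 1.3.1, Bowtie2 2.5.2, DESeq2 1.40.2 and GRCh38 without saying what each was used for. The annotation release and the strand setting of the counting are not given in the sources used here. Coordinates are those of GENCODE 29. A symbol was found for 62700 of 62754 identifiers.

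Values were rounded to whole counts. Genes were kept by filterByExpr, and all 12 libraries were fitted together with 1 mean per group in edgeR 4.0.16 (R 4.3.3), with TMM scaling, robust quasi-likelihood F tests and Benjamini-Hochberg adjustment over 17115 genes. SE is the log2 fold change over the square root of F. CPM uses TMM-scaled totals. Folds against a group with 0 counts are lower bounds against 3 counts over the group, and ratios with 1 to 3 counts carry a 95% exact interval, both covering counting error only. On simulated counts for DTC against untreated WT over 14634 genes, 81 of 100 genes changed 2-fold and 26 of 100 changed 1.5-fold were called. The simulation gave every gene the same dispersion and changed only these genes. In the data 34.0% of genes were called higher and 33.3% lower, so these rates may not hold there. The members and the pathway and marker lists were chosen with earlier results of these data known. Values in every library are given for the 2 genes with the largest change per role (all in roles of 3 or fewer), the 4 with the largest mean CPM per time course, every gene called in KO and every gene lower in DTC. MX1 and IFI6 are given beside these. Alternatives were other scalings, DESeq2 1.42.0, other filters, other sets of libraries, a replicate block and leaving out each library. Some genes of the pathway lists are not reported here.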

Additional observations from a re-analysis of the deposited data

Results flagged for a closer look

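For 7 genes the difference from untreated WT had opposite signs at 7 and 28 days while DTEC and DTC differed in the direct edgeR quasi-likelihood comparison. The log2 difference of DTEC from DTC was -1.39 for HERC5, -2.60 for OAS3, -3.17 for OASL, -3.01 for ISG20, -0.97 for PARP12, -0.92 for SP100 and -4.06 for IFI16. They are among 42 interferon-stimulated genes called in that comparison. Of the 7, ISG20 was called against untreated WT at both times, higher in DTC and lower in DTEC. The other DTEC values below untreated WT were not called, and IFI16 was called at neither time. The 3 DTEC libraries of OAS3 and of PARP12 were below all 3 untreated WT libraries, while those of SP100, HERC5 and OASL overlapped untreated WT.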

How the results depend on the processing

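Of 100 called differences of the 37 genes named by rule (MX1 and IFI6 are not among them), 88 kept call and direction in every alternative and 12 lost the call in at least 1, with none reversed. Of 48 uncalled differences 17 gained the call in at least 1. These 12 were USP18, EIF2AK2 and ADAR in DTC, IFIT1, IFI27 and LGALS3BP in DTEC, ADAR and LGALS3BP between DTC and DTEC, and IFITM1, IFITM2, BST2 and GBP2 in KO. With total counts the all-gene median shifted by 0.35 in DTC, 0.17 in DTEC, -0.19 from DTC to DTEC and 0.07 in KO, and higher calls as a share of all calls went from 50.5% to 68.4%, 49.7% to 63.7%, 51.9% to 37.4% and 64.1% to 78.8%. The upper quartile gave shares of 65.0%, 59.1%, 38.7% and 69.3%, so directions are relative to TMM. With the treated groups left out of the fit, 52.6% of the KO calls were higher.

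Genes lower in DTC numbered 1 with total counts and 2 with the upper quartile, and 2 to 4 leaving out single libraries. With the stricter filter 3 genes stayed high. The KO counts were 14 higher and 2 lower with the compared libraries alone, and 5 to 11 and 1 to 2 leaving out single libraries. Genes lower in DTEC numbered 1 to 4 leaving out single libraries. The cause was not tested.

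Changes of sign were confined to uncalled values. For ADAR in DTEC the value was 0.15 with total counts, 0.10 with the upper quartile, 0.0027 with RLE factors and with DESeq2, 0.025 with the stricter filter and 0.012 with the compared libraries, and -0.023 to 0.0065 leaving out single libraries. PARP12 in DTEC was 0.0079 with total counts. SP100 in DTEC was 0.092 and 0.038 with total counts and upper quartile, and -0.13 to 0.015 leaving out single libraries. USP18 from DTC to DTEC was -0.19 with total counts, -0.17 with the upper quartile, -0.024, -0.025 and -0.019 with RLE factors, DESeq2 and the compared libraries, and -0.066 with the stricter filter (-0.13 to 0.17 leaving out single libraries). IFITM1 from DTC to DTEC was -0.16, -0.151 and -0.042 with total counts, upper quartile and stricter filter (-0.33 to 0.18). EIF2AK2 was -0.0058 from DTC to DTEC and 0.015 in KO with total counts (-0.10 to 0.0024 in KO leaving out single libraries). Leaving out single libraries gave -0.22 to 0.17 for ISG15 in DTEC, -0.27 to 0.057 for DTX3L from DTC to DTEC, and in KO -0.37 to 0.47 for IFIT1, -1.86 to 1.89 for OAS2, -0.077 to 0.63 for TRIM22 and -1.84 to 2.68 for IFI44L.

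The main fit did not pair samples by replicate number. Of 18 pairs with the same number in different groups, 4 had deviations correlated above 0.1 (median 0.05, lowest -0.03, highest 0.18). For 8 of 12 libraries the best correlation was with a library of their own number, so a weak pairing may be present. With a replicate block, USP18 was at -0.0024 and IFITM1 at -0.015 from DTC to DTEC, and 12 genes fell back fully.

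Levels under the floor of 3 counts, 0.0782 to 0.117 CPM of the total in single libraries, limit what can be said of IFI16, RSAD2, CMPK2 and EPSTI1. In untreated WT the same holds for IFITM1, IFITM2, OAS2, DHX58, IFI27 and IFI44L, with 0 to 2 counts over the group. Their folds, calls and time courses against untreated WT rest on these counts.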
